A study of Mus musculus with 6 samples.

Results

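The genes described here encode 4 matrix metalloproteinases (*Mmp2*, *Mmp12*, *Mmp14* and *Mmp19*), 2 membrane-anchored ADAM proteases (*Adam10* and *Adam17*) and 3 tissue inhibitors of metalloproteinases (*Timp1*, *Timp2* and *Timp3*). They were followed through every probe set that the array's annotation ties to one of these symbols alone, which gave 26 of the 45037 probe sets that are not array controls and 9 of 18193 genes. Microglia of SOD1 G93A mice, a model of amyotrophic lateral sclerosis, were compared with microglia of wild-type (WT) littermates, with 3 whole-genome mouse arrays per genotype. All animals were males of 90 days on a mixed B6SJL background, and the SOD1 G93A mice carried many copies of a human SOD1 transgene with the G93A mutation, which is expressed in all cells and not in microglia alone. CD11b-positive cells were sorted from lumbar cord that had been digested with trypsin and hyaluronidase and freed of myelin, and each array held RNA of several pooled mice, so the spread between arrays is one between pools of animals.

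Matrix metalloproteinases are zinc enzymes that are secreted or held at the cell surface as inactive precursors and, once the pro-domain is removed, digest matrix proteins such as collagen, elastin and laminin. ADAM proteases cut the extracellular part off membrane proteins, a step called shedding, which frees cytokines such as TNF and removes receptors from the cell. TIMPs bind the active site of matrix metalloproteinases, and only some of them also block certain ADAM proteases. In nervous tissue microglia are among the cells that make proteases and inhibitors alike. The transcript measured on the arrays says nothing of precursor cleavage or of the balance of enzyme and inhibitor protein.

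Values are log2 signals per probe set. Signals below 5 lie close to background, and those above 13 may be limited by saturation. Differences between genotypes were tested with limma over all 45037 probe sets, and a probe set was counted as changed (passed) when its p, after Benjamini-Hochberg adjustment, was under 0.05. *Itgam*, which encodes CD11b, averaged 8.71 ± 0.04 in SOD1 G93A and 8.73 ± 0.30 in WT microglia (SD, n = 3 each), a log2 fold change of -0.02 (adjusted p = 0.956, limma). Of 11 microglial markers 1 was higher (*Trem2*, 1.28) and 1 lower (*Sall1*, a transcription factor gene of microglial identity, -0.83). The mean log2 signal of the list lay between 10.9 and 11.1 on the arrays of either genotype. Neutrophil markers were about as bright, with list means of 10.52 to 11.19 on SOD1 G93A arrays and 11.03 to 11.98 on WT arrays. Monocyte markers had 9.48 to 9.92 and 10.4 to 11.0 in the same order. The word microglia therefore stands here for the sorted CD11b-positive cells. The first principal component held 46.4% of the variance and separated the genotypes, and the second, with 28.0%, set the 2 arrays numbered 1 apart from the other 4. The difference between *Gapdh* control probe sets for the 3' and 5' end of the transcript is often read as a sign of RNA integrity. It was 4.12 ± 0.59 in SOD1 G93A and 4.89 ± 0.11 in WT microglia (SD, n = 3 each). The exact two-sided permutation p was 0.1, the smallest that 3 arrays against 3 allow. For *Actb* the difference was 2.67 ± 0.72 and 3.42 ± 0.49 in the same order (exact two-sided permutation p = 0.2). Whether RNA integrity or amplification lay behind these differences was not tested. With the *Gapdh* difference as a covariate, 129 probe sets passed over the whole array, against 2089 without it. *Mmp12* was the only one of the 9 genes among them. The log2 fold changes were nevertheless 0.86 and 0.999 for *Mmp2* (1.08 and 0.95 without the covariate) and 1.02 for *Timp2* (1.10 without it).

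Of the 26 probe sets, 4 were higher in SOD1 G93A microglia, 0 were lower and 22 did not pass. The 4 make up 15.4% of the probe sets of these genes, beside 2.71% of all probe sets on the array that were higher and 1.93% that were lower. They belonged to *Mmp12*, *Mmp2* (both of its probe sets) and *Timp2*, while the other 6 genes had no probe set that passed. By the probe set of highest signal, 3 of the 9 genes were higher, beside 3.53% of all 18193 genes. The 9 genes were chosen with earlier results of these data known, so these shares are no test of the family. The 3 arrays of one genotype did not overlap those of the other for 9 of the 26 probe sets (34.6%), all of them higher in SOD1 G93A microglia, beside 13.4% of all probe sets in that direction. The median log2 fold change was 0.17 over the 26 probe sets and 0.003 over all probe sets, with 20 of the 26 above 0 and 6 below. The 22 that did not pass lay between -0.27 and 0.59. Without both arrays numbered 1, 6 probe sets were higher, the added ones being 1421858_at of *Adam17* and 1450040_at of *Timp2*.

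**Figure D1:**
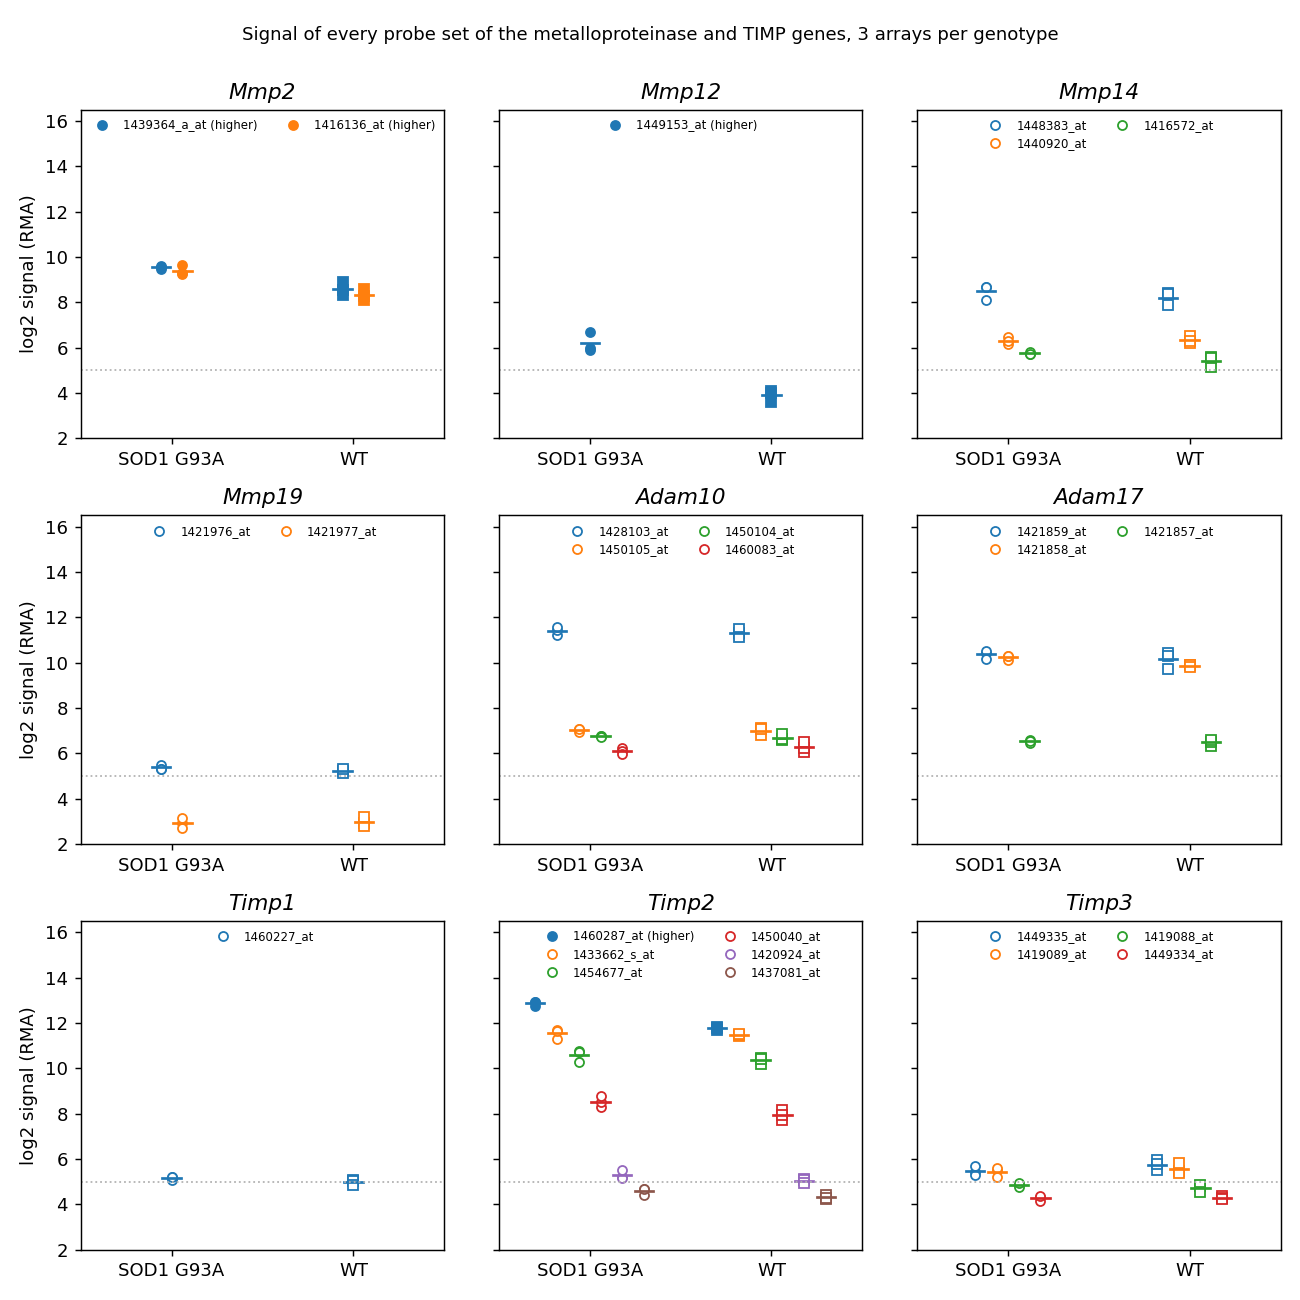
Log2 signal of each probe set of the 9 genes on every array. Circles stand for the 3 SOD1 G93A arrays and squares for the 3 WT arrays, short lines are group means, filled symbols mark the 4 probe sets that passed, and the dotted line is a log2 signal of 5. *Mmp12* lies above the dotted line on all SOD1 G93A arrays and below it on all WT arrays.

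*Mmp12*, macrophage elastase, is a secreted protease that digests elastin and is made mainly by macrophages. Its only probe set, 1449153_at, had log2 signals of 6.69, 6.00 and 5.91 on the SOD1 G93A arrays, against 4.08, 4.0 and 3.62 on the WT arrays. All 3 SOD1 G93A arrays were above all 3 WT arrays, and the WT arrays lay close to background. The means were 6.20 ± 0.43 and 3.90 ± 0.25 (SD, n = 3 each), which gave a log2 fold change of 2.30 (SE 0.21, 95% interval 1.82 to 2.78, adjusted p = 0.00171, limma) between the measured means. As the WT signals were below 5, the size of this rise is poorly measured. With signals under 5 set to 5, the log2 fold change of *Mmp12* was at least 1.20 (SE 0.20, 2.29-fold, adjusted p = 0.0302, limma). That floor sets all 3 WT arrays to 5, so 1.20 is a lower limit of the measured rise and not its size. The WT arrays then add no spread of their own to this p. In the fit with the *Gapdh* covariate, run on the signals without that floor, *Mmp12* passed as well (adjusted p = 0.00721, limma).

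The 3 genes whose profile over the 6 arrays was most like that of *Mmp12* were *Klrb1a*, *Cxcl14* and *Dpp7*. The root mean square difference of the centred log2 profiles was 0.24 for *Klrb1a*, 0.27 for *Cxcl14* and 0.31 for *Dpp7*. *Klrb1a*, which encodes a lectin-like receptor, averaged 6.54 ± 0.08 in SOD1 G93A and 4.32 ± 0.12 in WT microglia (SD, n = 3 each), where its signal was also close to background. *Cxcl14*, a chemokine gene, was higher by 2.16 on the log2 scale, and *Dpp7*, which encodes a lysosomal peptidase, by 1.91. These likenesses describe 6 arrays, share the genotype contrast and rest in part on the background-level WT signals of *Mmp12*.

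*Mmp12* stands in a row of metalloproteinase genes on the chromosome, and no other gene of the row that was measured passed the test. *Mmp13* (0.08), *Mmp1b* (-0.09), *Mmp3* (0.21), *Mmp1a* (0.08), *Mmp10* (0.01) and *Mmp20* (0.08) had log2 fold changes near 0. All of these but *Mmp10* had mean log2 signals below 5. *Mmp8*, neutrophil collagenase, had a log2 fold change of -0.77 (adjusted p = 0.194, limma).

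The sequences upstream of the start sites are shown for *Mmp12* and *Timp2*, since these are the genes with a probe set that passed for which a promoter sequence was at hand. RefSeq (GRCm38.p6) gives *Mmp12* 2 start sites. The 120 bases before each are printed 5′ to 3′ on the gene's strand, first those of chr9:7344277-7344396 and then those of chr9:7347254-7347373. Capitals mark a PEA3 element for ETS factors (AGGAAG, here on the reverse strand as CTTCCT) in the first sequence and an AP-1 element (TGAGTCA) in the second.
Mmp12 start 1: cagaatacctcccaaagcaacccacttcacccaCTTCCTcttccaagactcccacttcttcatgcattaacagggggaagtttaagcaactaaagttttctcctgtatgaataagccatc
Mmp12 start 2: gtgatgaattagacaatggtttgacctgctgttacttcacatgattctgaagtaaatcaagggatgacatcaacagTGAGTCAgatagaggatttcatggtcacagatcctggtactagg
The AP-1 element begins at position -44 from the second start site. Over the 250 bases upstream, on either strand, TGAGTCA was found in 4.46% and AGGAAG in 29.5% of 32851 promoters, and neither element overlaps the other. The same window of 7 of the 9 genes was searched, which is 8 promoters, and TGAGTCA occurred in 1 of them, AGGAAG in 6 and the GC box GGGCGG in 6. A match is a description of the sequence and not a site of binding.

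*Mmp2* encodes gelatinase A, which digests denatured collagen and the type IV collagen of basement membranes. Probe set 1416136_at had log2 signals of 9.26, 9.29 and 9.66 on the SOD1 G93A arrays, against 8.59, 8.12 and 8.27 on the WT arrays. The log2 fold change was 1.08 (SE 0.16, 95% interval 0.72 to 1.44, 2.11-fold, adjusted p = 0.0100, limma). Probe set 1439364_a_at had 9.49, 9.59 and 9.54 on the SOD1 G93A arrays, against 8.92, 8.33 and 8.53 on the WT arrays. Its log2 fold change was 0.95 (SE 0.15, 95% interval 0.60 to 1.29, 1.93-fold, adjusted p = 0.0137, limma). In both probe sets the lowest SOD1 G93A array was above the highest WT array. Both calls were lost without WT replicate 3, with a log2 fold change of 1.05 (adjusted p = 0.0533, limma) for 1416136_at and 0.92 (adjusted p = 0.0652) for 1439364_a_at, and that of 1439364_a_at also without SOD1 G93A replicate 2 (0.0635) or 3 (0.0621). With the *Gapdh* covariate the log2 fold change was 0.86 (SE 0.22, adjusted p = 0.146, limma) for 1416136_at and 0.999 (SE 0.23, adjusted p = 0.123) for 1439364_a_at, with larger standard errors than in the fit without it.

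Fibroblasts and mural cells are common sources of *Mmp2* in other tissues. Of 11 measured markers of these cells 0 were higher and 0 lower, and the mean log2 signal of the list lay between 6.00 and 6.18 on SOD1 G93A arrays and between 6.11 and 6.21 on WT arrays. Among 9 endothelial markers 1 was higher and 0 were lower, with list means of 6.08 to 6.42 on SOD1 G93A arrays and 5.92 to 6.16 on WT arrays. Their part in the *Mmp2* result was not tested, and in pooled sorted cells more cells of a type cannot be told apart from more RNA per cell.

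*Mmp14* encodes MT1-MMP, which stays in the membrane and activates proMMP2 together with TIMP2. Probe set 1448383_at had log2 signals of 8.11, 8.67 and 8.67 in SOD1 G93A and of 7.87, 8.42 and 8.35 in WT microglia, and the genotypes overlapped. The log2 fold change was 0.27 (95% interval -0.18 to 0.71, adjusted p = 0.517, limma). Probe set 1416572_at had 5.74, 5.79 and 5.73 in SOD1 G93A and 5.59, 5.15 and 5.55 in WT microglia. These did not overlap, but the difference of 0.33 (95% interval 0.02 to 0.63) did not pass (adjusted p = 0.223, limma). The third probe set, 1440920_at, had a log2 fold change of -0.04 (adjusted p = 0.895, limma).

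*Mmp19*, which encodes a secreted protease of basement membranes, gave dim signals. Probe set 1421976_at had 5.51, 5.29 and 5.33 in SOD1 G93A and 5.22, 5.15 and 5.31 in WT microglia, with overlap and a log2 fold change of 0.15 (adjusted p = 0.513, limma). Probe set 1421977_at had a mean of 2.94 and a log2 fold change of -0.04, and this close to background it has little bearing on *Mmp19*.

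*Adam10* encodes the main alpha-secretase, which sheds amyloid precursor protein and cleaves Notch receptors. Its probe set 1428103_at had log2 signals of 11.20, 11.42 and 11.57 in SOD1 G93A and of 11.30, 11.48 and 11.15 in WT microglia. The genotypes overlapped, and the log2 fold change of 0.09 had a 95% interval of -0.22 to 0.40. The 3 further probe sets had log2 fold changes of 0.03, 0.06 and -0.17, and adjusted p over the 4 ran from 0.572 to 0.928 (limma).

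*Adam17* encodes TACE, the protease that releases soluble TNF. Probe set 1421858_at had log2 signals of 10.11, 10.31 and 10.30 in SOD1 G93A and of 9.88, 9.89 and 9.80 in WT microglia. All SOD1 G93A arrays were higher, yet the log2 fold change of 0.39 (SE 0.11, 95% interval 0.14 to 0.63) did not pass (adjusted p = 0.0797, limma). It passed in limma without both arrays numbered 1 (adjusted p = 0.0498). Probe set 1421859_at had 10.42, 10.49 and 10.17 in SOD1 G93A and 9.72, 10.42 and 10.29 in WT microglia, a log2 fold change of 0.22 (adjusted p = 0.586, limma), with overlap and WT replicate 1 lowest. The third, 1421857_at, had a log2 fold change of 0.05 (adjusted p = 0.855, limma).

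*Timp2* encodes the inhibitor that also holds proMMP2 at MT1-MMP for its activation. Its 6 probe sets all had positive log2 fold changes, but 1 passed. Probe set 1460287_at had log2 signals of 12.74, 12.93 and 12.91 in SOD1 G93A, against 11.80, 11.70 and 11.79 in WT microglia. Every SOD1 G93A array was above every WT array, and the means were 12.86 ± 0.11 and 11.76 ± 0.05 (SD, n = 3 each). The log2 fold change was 1.10 (SE 0.11, 95% interval 0.86 to 1.34, 2.14-fold, adjusted p = 0.00202, limma). It passed with each array left out in turn, at 1.06 to 1.16, and had an adjusted p of 0.0551 with the *Gapdh* covariate (1.02, limma).

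The other probe sets of *Timp2* changed less. Probe set 1450040_at had log2 signals of 8.28, 8.51 and 8.76 in SOD1 G93A and of 7.71, 8.14 and 7.93 in WT microglia, without overlap. Its log2 fold change was 0.59 (95% interval 0.23 to 0.95, adjusted p = 0.0721, limma), and it passed without SOD1 G93A replicate 1 (0.71, adjusted p = 0.0456). Probe set 1433662_s_at had 11.31, 11.71 and 11.63 in SOD1 G93A and 11.44, 11.47 and 11.53 in WT microglia, which overlapped, with a log2 fold change of 0.07 (adjusted p = 0.835, limma). Probe sets 1454677_at (0.22), 1420924_at (0.28) and 1437081_at (0.27, with a mean log2 signal of 4.45) did not pass either. Where each probe set lies on the transcript is not given in the sources used here.

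By probe set, the log2 fold change of *Timp2* ran from 0.07 to 1.10, a description in which 1460287_at stands out by its own change.

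*Timp2* overlaps *Cep295nl* on the chromosome, whose probe set had a log2 fold change of 0.12 and did not pass. Its neighbour *Lgals3bp*, which encodes a secreted galectin-binding protein and was named after its values were seen, was higher by 2.53 (adjusted p = 0.0185, limma). The 120 bases before the *Timp2* start site, chr11:118355412-118355531 of GRCm38.p6 (RefSeq) on the minus strand, follow with a GC box (GGGCGG) in capitals.
Timp2: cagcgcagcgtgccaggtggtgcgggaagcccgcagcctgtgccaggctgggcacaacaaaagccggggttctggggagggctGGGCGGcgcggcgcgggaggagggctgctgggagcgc
The GC box begins at position -37 from the start, and its letters occur on either strand in 32.7% of 32851 promoters. Of the 2 *Mmp12* promoters neither held a GC box, and the *Timp2* promoter held none of the AP-1 or PEA3 letters. The TATA box (TATAAA), searched on the gene's strand alone, was in none of the 8 promoters and in 7.59% of all.

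*Timp1*, the secreted inhibitor that is often induced in injured tissue, had log2 signals of 5.22, 5.08 and 5.21 in SOD1 G93A and of 5.06, 5.03 and 4.86 in WT microglia. The genotypes did not overlap, but signals lay near background and the log2 fold change of 0.18 (95% interval -0.06 to 0.43) did not pass (adjusted p = 0.405, limma). *Timp1* lies within the neuronal gene *Syn1*, which had a log2 fold change of -0.31 and did not pass.

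*Timp3*, the inhibitor that binds to matrix and blocks ADAM17 as well as matrix metalloproteinases, had 4 probe sets with mean log2 signals of 4.28 to 5.60. Probe set 1449335_at had 5.43, 5.70 and 5.28 in SOD1 G93A and 5.93, 5.53 and 5.76 in WT microglia, with overlap and a log2 fold change of -0.27 (95% interval -0.61 to 0.07). The others had -0.12, 0.12 and -0.02, and adjusted p over the 4 ran from 0.375 to 0.956 (limma). *Timp3* lies within *Syn3*, whose 3 probe sets had log2 fold changes of -0.23 to -0.05.

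**Figure D2:**
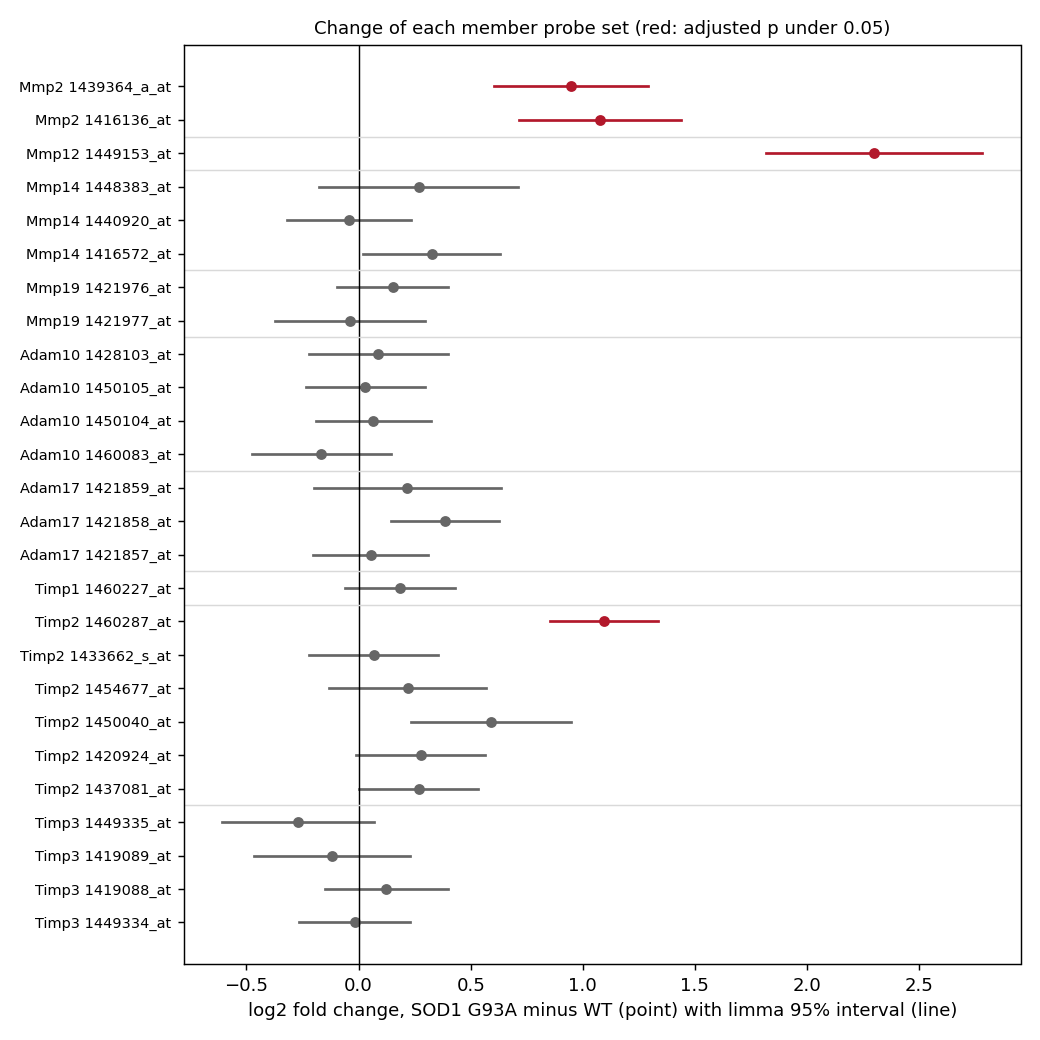
Log2 fold change, SOD1 G93A minus WT, of each of the 26 probe sets (points) with its limma 95% interval (lines, 3 arrays per genotype). Red marks the 4 probe sets with an adjusted p under 0.05, and the 6 probe sets of *Timp2* spread between 0.07 and 1.10.

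Related genes were read through lists of other proteases, inhibitors, activators and substrates, with 1 probe set per gene, that of the highest mean signal. Over the 7 lists, 10 of 104 measured genes were higher and 3 were lower, while 3.53% of all 18193 genes were higher and 2.08% lower. The median log2 fold change of all genes was 0.02.

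Of 14 measured other matrix metalloproteinases (19 listed) 0 passed in either direction, and the median log2 fold change was 0.04. *Mmp9*, gelatinase B, had log2 signals of 10.22, 10.65 and 10.92 in SOD1 G93A and of 10.78, 11.77 and 11.88 in WT microglia. Its log2 fold change was -0.88 (adjusted p = 0.132, limma), and a second probe set had -1.06 (adjusted p = 0.102, limma). *Mmp8* had 9.56, 10.17 and 10.50 in SOD1 G93A and 10.22, 11.20 and 11.11 in WT microglia. In both genes replicate 1 was the lowest array of its genotype and the genotypes overlapped. Without WT replicate 1, 2 of the 14 genes of the list, not identified here, passed as lower. Neutrophils store both proteases, and 2 of 9 neutrophil markers were lower and 0 higher, with list means of 10.52 to 11.19 on SOD1 G93A arrays and 11.03 to 11.98 on WT arrays, so that neutrophil transcripts were present in the sorted cells. Of 7 monocyte markers 5 were lower and 0 higher, with list means of 9.48 to 9.92 in SOD1 G93A and 10.4 to 11.0 in WT microglia. Of 9 border macrophage markers 3 were lower and 1 higher, at 8.29 to 8.58 in SOD1 G93A and 8.75 to 9.10 in WT microglia. The part of these cells in the values of *Mmp8*, *Mmp9* and *Mmp12* was not tested.

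Among 7 other ADAM genes 1 was higher and 1 lower, with a median of 0.07. *Adam9*, which encodes a sheddase of broad tissue distribution, was higher, with 9.80, 10.30 and 10.32 in SOD1 G93A and 9.17, 9.65 and 9.24 in WT microglia (log2 fold change 0.79, adjusted p = 0.0445, limma). *Adam19* was lower, with 5.903, 5.928 and 5.984 in SOD1 G93A and 6.88, 6.63 and 6.57 in WT microglia (-0.75, adjusted p = 0.0122, limma), while its other probe set had -0.12 and did not pass. The *Adam9* call was lost without any one array other than SOD1 G93A replicate 1 (adjusted p = 0.0551 to 0.158, limma), and that of *Adam19* without SOD1 G93A replicate 2 (0.0547) or 3 (0.0505). *Adam15* (0.47, adjusted p = 0.052) and *Adam8* (-0.33, adjusted p = 0.489, limma) did not pass. Other probe sets of *Adam15* had 0.24, 0.14 and 0.07 and did not pass either.

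Of 15 measured ADAMTS genes (19 listed), which encode secreted proteases of proteoglycans and collagen precursors, 1 was higher and 0 were lower, with a median of -0.09. *Adamts1*, an aggrecanase, had 9.97, 10.04 and 10.17 in SOD1 G93A and 9.42, 9.18 and 8.99 in WT microglia (log2 fold change 0.86, adjusted p = 0.0118, limma). This call was lost without SOD1 G93A replicate 2 (0.0525) or 3 (0.0581) or WT replicate 3 (0.0503). *Adamts20* (-0.98, adjusted p = 0.371) and *Adamts4* (-0.56, adjusted p = 0.0669, limma) did not pass. The *Adamts20* value rests on WT replicate 1 (6.09). The other WT arrays had 3.69 and 3.86 and the SOD1 G93A mean was 3.57, close to background. A second probe set of *Adamts4* had 0.09.

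Of 7 other inhibitors 0 passed, with a median of -0.01. *Timp4* had 6.83, 5.96 and 5.44 in SOD1 G93A and 8.72, 7.31 and 7.12 in WT microglia. All SOD1 G93A arrays were lower, but the log2 fold change of -1.64 did not pass (adjusted p = 0.0774, limma), and a further probe set had 0.04. *Reck*, a membrane-anchored inhibitor, had -0.72 (adjusted p = 0.345, limma). Without SOD1 G93A replicate 1, 1 of the 7 genes, not identified here, passed as lower. *Timp4* is known from astrocytes, of whose 10 markers 5 were lower and 0 higher, with list means of 6.53 to 7.16 in SOD1 G93A and 7.47 to 8.19 in WT microglia. Their part in the *Timp4* value was not tested.

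Of 20 measured genes for activation and trafficking (21 listed) 2 were higher and 0 lower, with a median of 0.01. *Bsg*, which encodes basigin, a surface glycoprotein that induces metalloproteinases in neighbouring cells, had 9.01, 8.88 and 8.99 in SOD1 G93A and 7.88, 7.93 and 7.97 in WT microglia (log2 fold change 1.03, adjusted p = 0.0021, limma). *Plau*, which encodes urokinase, an activator of plasminogen, had 6.81, 6.76 and 6.61 in SOD1 G93A and 6.15, 5.44 and 5.38 in WT microglia (1.07, adjusted p = 0.0215, limma), and its second probe set was higher as well (0.68, adjusted p = 0.0223). In neither gene did the genotypes overlap. The *Plau* call was lost without replicate 2 or 3 of either genotype (adjusted p = 0.0705 to 0.0858, limma). *Itgav* (-0.28) and *Tspan17* (0.25) did not pass.

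Of 22 measured substrates of ADAM10 or ADAM17 (24 listed) 6 were higher and 1 lower, with a median of 0.05. *Axl*, a receptor for dying cells, had 8.69, 9.86 and 10.25 in SOD1 G93A and 6.82, 7.12 and 6.79 in WT microglia (log2 fold change 2.69, adjusted p = 0.00514, limma). Its second probe set, close to background, had 0.16 and did not pass. *Cxcl16*, a membrane-bound chemokine, had 9.60, 9.94 and 10.65 in SOD1 G93A and 8.25, 8.23 and 8.42 in WT microglia (1.76, adjusted p = 0.00643, limma). In both genes the SOD1 G93A arrays spread more than the WT arrays, with replicate 1 lowest. *Tnf* was higher by 1.26 (adjusted p = 0.00356, limma) and *Trem2*, a lipid receptor of microglia, by 1.28 (adjusted p = 0.0187, limma). The second probe set of *Trem2* had 0.18 and did not pass, and the call of the first was lost without SOD1 G93A replicate 2 (0.0670) or 3 (0.0515) or WT replicate 3 (0.0694). The adhesion molecules *Alcam* (1.10) and *Vcam1* (1.02), named after their values were seen, were higher too. For *Alcam* 4 of 5 probe sets passed. For *Vcam1* it was 1 of 3, the others having 0.53 and 0.23. *Il6ra*, the receptor for interleukin-6 and likewise named after its value was seen, was lower, with a log2 fold change of -0.65 (adjusted p = 0.0423, limma). That call was lost without replicate 2 or 3 of either genotype (0.124 to 0.147), and the other probe set of *Il6ra* had -0.06 and did not pass. *Notch2* (-0.54) and *Cd44* (-0.48) did not pass. These are transcripts of substrates, and shed protein was not measured.

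Of 19 matrix substrates 0 were higher and 1 was lower, with a median of -0.08. *Bcan*, which encodes the brain proteoglycan brevican, had 7.60, 7.63 and 7.53 in SOD1 G93A and 9.20, 8.40 and 8.18 in WT microglia (log2 fold change -1.0, adjusted p = 0.0457, limma). Its other probe set had -0.26 and did not pass, and the call was lost without any one array other than WT replicate 1 (0.0549 to 0.149). Brevican is made by astrocytes and cells of the oligodendrocyte lineage. Of 9 oligodendrocyte markers 2 were lower and 0 higher, with list means of 7.87 to 8.09 in SOD1 G93A and 8.51 to 8.78 in WT microglia, and of 10 neuronal markers 5 were lower and 0 higher, at 5.12 to 5.21 in SOD1 G93A and 5.85 to 6.10 in WT microglia. Their part in the *Bcan* value was not tested. *Vcan* (-0.79) and *Bgn* (-0.52) did not pass.

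**Figure D3:**
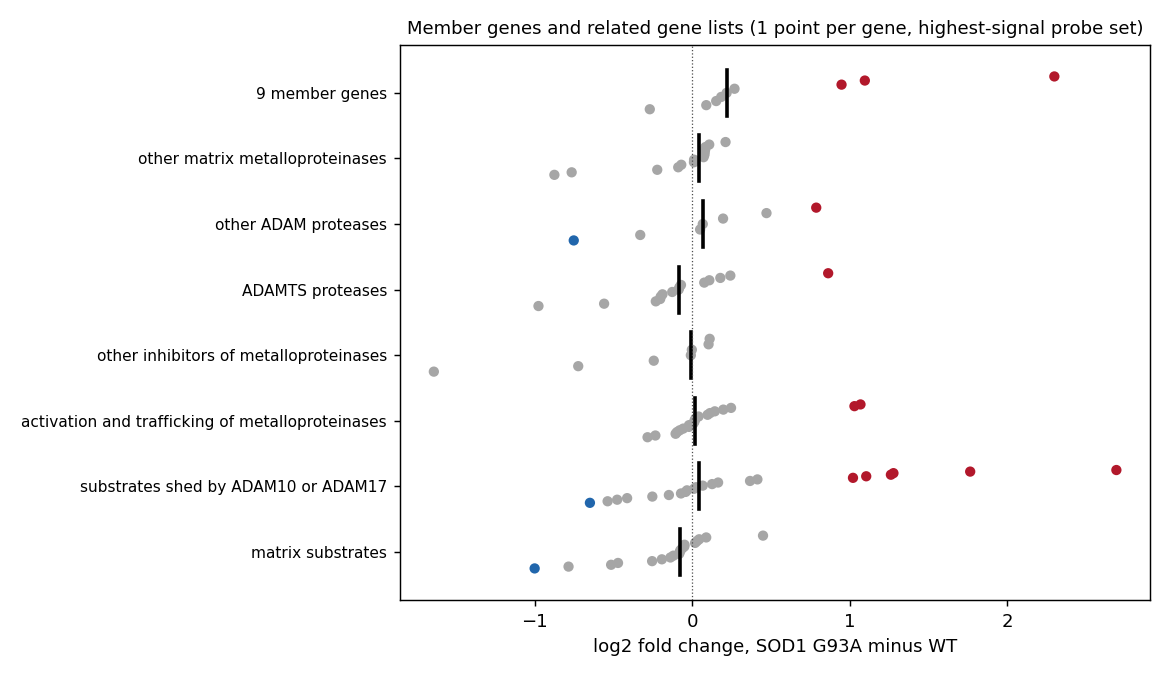
Log2 fold change, SOD1 G93A minus WT, of the 9 genes and of the genes of the 7 related lists, 1 point per gene at its highest-signal probe set. Red points were higher and blue points lower at an adjusted p under 0.05, black bars are list medians, and *Mmp12* (2.30) and *Axl* (2.69) lie farthest to the right.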

How the data were processed

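The authors deposited normalised log2 signals, 1 per probe set and array. The submitters' processing notes name RMA and Partek without versions, while the methods name MAS software, whose detection calls were not used here. RMA draws arrays to a common distribution, and array medians lay between 5.93 and 5.97. Labels and methods also differ on RNA amplification. All 45037 probe sets other than controls were fitted with limma 3.58.1 (R 4.3.3; genotype as the only term, 3 arrays per genotype), with Benjamini-Hochberg adjustment over all of them. Of these, 34945 carry 1 gene symbol, 932 several and 9160 none. The number of arrays limits the precision. In data simulated from the means and spreads of these arrays, 14 of 50 changes of 1.5-fold and 31 of 50 of 2-fold were recovered over 45037 probe sets. For 4-fold it was 46 of 50 and for 8-fold 50 of 50, and 6 unchanged probe sets were called. The simulation changed far fewer probe sets than passed here, shuffled the spreads over probe sets and left out the shift of the arrays numbered 1. Recovery in the measured data may therefore differ. Single values were compared by exact permutation tests over arrays.

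Every probe set of the 9 genes is reported. Of each other list, up to 4 genes that passed and up to 2 that did not were named, by size of change, together with the 3 genes most like *Mmp12*, and *Itgam*. Chromosomal neighbours of some of the 9 genes, *Sall1*, and 3 further substrates of the ADAM proteases were added after their values were seen. Not every neighbour was reported. The genes and lists were chosen with earlier results of these data known. Alternatives covered other tests, thresholds, filters, array weights, a replicate block, a *Gapdh* covariate and arrays left out. For the lists, the covariate and the fit without both arrays numbered 1 were added after seeing the data. Promoters came from RefSeq (GRCm38.p6), with none at hand for *Mmp2* and *Mmp19*, and no gene coordinates are given for probe sets because the arrays name no build. Symbols are those of the platform annotation. Python 3.11.15, pandas 2.3.3 and matplotlib 3.10.9 were used for annotation and figures.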

Additional observations from a re-analysis of the deposited data

How the results depend on the processing

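Of the 26 probe sets 4 were higher by limma, and 0 were lower under every alternative tried. The number higher was 4 with trend and robust variance, a minimum signal of 5, a floor of 5 or median-centred arrays. It was also 4 with the methods' fold threshold and an unadjusted p. *Mmp12* met the minimum and the floor of 5 through its SOD1 G93A signals alone, so its entry there depended on the rise itself. The number was 3 with 1 probe set per gene, where *Mmp2* counts once, and 3 with a minimum of 7, which removed *Mmp12*. No call failed in these settings. It was 6 with array weights or without both arrays numbered 1, and 1 (*Mmp12*) with the *Gapdh* covariate. With 1 array left out it was 2 to 5, the 2 without WT replicate 3. The methods' t-test, with unequal variance, gave 0 after Benjamini-Hochberg adjustment here and over all 45037 probe sets, where it gave 5697 at an unadjusted p under 0.05 and limma gave 8767. Over all probe sets 1221 were higher and 868 lower by limma, against 88 and 41 with the covariate, 1968 and 1581 with array weights, and 479 to 2195 in either direction with 1 array left out. In the related lists 10 genes were higher and 3 lower. With 1 array left out these counts were 6 to 11 and 0 to 5, with the covariate 0 and 0, and 10 genes were lower in the fit without both arrays numbered 1.

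With the number of the array as a replicate block, 5 probe sets were higher (1450040_at of *Timp2* was added), and over all probe sets 2246 were higher and 2273 lower. Deviations of same-numbered arrays correlated at 0.44, 0.24 and 0.029, and SOD1 G93A replicate 3 correlated best with WT replicate 2. As 1 of the 3 pairs did not deviate together, the numbers were not taken as pairs. Both arrays numbered 1 nevertheless stood apart from the others on the second principal component. The paper states that the groups were litter-matched but does not say that array numbers mark litters, so whether the arrays are paired is not known.

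No probe set that passed changed direction. Among the others, the log2 fold change changed sign with the *Gapdh* covariate for *Mmp14* 1448383_at (-0.094) and 1440920_at (0.065), *Adam10* 1428103_at (-0.14) and 1450105_at (-0.0271), *Timp2* 1433662_s_at (-0.096) and 1454677_at (-0.040) and *Timp3* 1419089_at (0.095). Without both arrays numbered 1 it did so for *Adam10* 1450105_at (-0.081) and 1450104_at (-0.0024) and *Adam17* 1421859_at (-0.021) and 1421857_at (-0.058), with array weights for *Adam10* 1450105_at (-0.0273) and *Adam17* 1421857_at (-0.0097), and with median-centred arrays for *Timp3* 1449334_at (0.00021). With 1 array left out the ranges that crossed 0 were -0.12 to 0.033 for *Mmp14* 1440920_at, -0.14 to 0.072 for *Mmp19* 1421977_at, -0.063 to 0.085 for *Adam10* 1450105_at, -0.022 to 0.11 for *Adam17* 1421857_at, -0.013 to 0.19 for *Timp2* 1433662_s_at, -0.21 to 0.015 for *Timp3* 1419089_at and -0.060 to 0.048 for *Timp3* 1449334_at. The cause was not tested. Signals of *Mmp12* in WT microglia, and those of the 4 probe sets with a mean log2 signal below 5 (1 of *Mmp19*, 1 of *Timp2* and 2 of *Timp3*), lay close to background, where changes are measured poorly.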
